A study of Homo sapiens with 16 samples.

Results

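The genes described are 10 of the 58243 in the count table: the NF-kB subunits NFKB1, NFKB2, RELA and RELB, the feedback inhibitors NFKBIA and TNFAIP3, the signalling proteins TRAF1, BIRC3 and TNFRSF9, and the adhesion molecule ICAM1. They were taken by gene symbol, and all 10 matched and passed the filter on low counts, as did 16647 genes of the table. The set was put together with earlier results of these counts known. TRAF1 and TNFRSF9 lead it and count here as chosen by their measured differences between the groups, so their values are a description with no test. Tests are given for the other 8, with the same caution on how the set arose.

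The cells were U-251 MG, a human line established from a glioblastoma, grown in medium with serum and kept with drug or vehicle for 48 h from 24 h after seeding. Poly(A) RNA was sequenced from 4 groups of 4 libraries. The groups were DMSO alone (the vehicle), 0.06 µM simvastatin, 0.6 µM irinotecan, and the combination, which is both at the same doses. Simvastatin, a statin, blocks the synthesis of cholesterol and isoprenoids, and the active form of irinotecan inhibits topoisomerase I. In each group 1 title lacks a number, and that library is called replicate 4. Whether the libraries of a group are separate cultures is not said in the labels. The p-values therefore measure the spread between these libraries, which may be technical.

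NF-kB is a family of dimeric transcription factors that are held inactive in the cytoplasm by IkB proteins. In the canonical pathway, receptors of the TNF and interleukin-1 families activate the IKK kinases, IkB is degraded, and dimers such as RELA with the NFKB1 product p50 enter the nucleus. In the non-canonical pathway, stabilised NIK kinase (the product of MAP3K14) drives the processing of the NFKB2 product p100, which releases RELB dimers. Several NF-kB targets encode inhibitors or components of the pathway itself, and so form feedback loops. In glioblastoma, NF-kB activity is known for its link to the mesenchymal state and to resistance to treatment.

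Dimers of NF-kB bind the κB motif, and the windows before the start sites of these genes show where it lies. The 250 bases before each RefSeq start (GRCh38.p14) were searched on both strands for 1 strict form of this 10-base motif. That form is GGGRNNYYCC, where R is A or G, Y is C or T, and N is any base. Promoter entries matched 9 of the 10 genes (all but RELB), with 15 start sites. At least 1 match was found for 6 of those 9 genes and in 7 of the 15 windows. Over all promoters given by RefSeq, 9.96% of 35116 windows and 11.8% of 27305 genes held a match. The sites below are 30 bases long, run 5′ to 3′ on the gene's strand, and are shown so that the motif, in capitals, can be compared between genes.
TNFRSF9: agctgtggtGGGAATTTCCCatgagacccc
NFKB1: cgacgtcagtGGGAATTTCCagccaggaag
NFKB2, start at 102394578: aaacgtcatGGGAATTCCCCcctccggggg
NFKB2, start at 102395705: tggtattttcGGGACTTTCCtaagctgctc
NFKBIA: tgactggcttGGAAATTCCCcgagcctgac
TNFAIP3: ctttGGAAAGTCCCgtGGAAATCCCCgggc
BIRC3: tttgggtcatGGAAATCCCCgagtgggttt

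The TNFRSF9 site (chr1:7940893-7940922, minus strand) holds overlapping matches, 1 on each strand, whose first base lies 74 bases before the start. In NFKB1 (chr4:102501300-102501329) the match begins 49 bases before the start. NFKB2 has 4 such sites, of which 2 are shown. The former (chr10:102394462-102394491) also holds overlapping matches, the first 107 bases before the start at position 102394578. The latter (chr10:102395674-102395703) has its match 21 bases before position 102395705. The NFKB2 matches not shown begin 78 bases before 102394578 and 176 bases before 102395705. The NFKBIA match begins 81 bases before the start (chr14:35404811-35404840, minus strand). TNFAIP3 has 2 matches in 1 site, the first of them 67 bases before the start (chr6:137867188-137867217). The BIRC3 match shown begins 199 bases before the start (chr11:102317275-102317304), and another, not shown, 135 bases before it. No match was found in these windows for TRAF1 (3 starts), RELA (2 starts) and ICAM1 (1 start). This says only that the strict form searched for is not in those 250 bases, and looser forms were not searched for. The ICAM1 window holds TGGAAATTCC, which differs from that form in its first base alone. A match is a description of the sequence, not evidence of binding in these cells.

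Library totals ranged from 24159673 to 32318888 counts, with overlapping ranges in the 4 groups. Levels are in CPM, the counts-per-million unit, with library totals scaled by TMM factors. Of 9 glioma and astrocyte markers 8 passed the filter, led by CD44, VIM and NES, while AQP4 had a mean of 0.0525 CPM. The summed level of the 9 ran from 7217 to 7460 CPM in DMSO, from 6987 to 7107 in simvastatin, from 5323 to 5487 in irinotecan and from 5302 to 5452 in the combination. This sum was lower in the groups with irinotecan, in which most of the genes below were higher, and its part in their results was not tested. Of 12 leukocyte and microglia markers, CD3E, CD2 and TYROBP had no count in any library, 11 were under 1 CPM in mean, and their summed level was 1.38 to 2.71 CPM over all libraries. In bulk RNA, fewer cells with a transcript and less of it per cell cannot be told apart.

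Per kilobase of exon (GENCODE 29), the level in DMSO was highest for RELA, at 13.4 ± 0.5 CPM per kb (SD, n = 4). NFKB1 had 6.25 ± 0.23, NFKBIA 5.56 ± 0.32 and NFKB2 4.60 ± 0.17 CPM per kb. TNFAIP3 had 1.37 ± 0.16 and RELB 1.12 ± 0.11 CPM per kb, a pair whose SDs overlap. Lower still were ICAM1 at 0.523 ± 0.057, TRAF1 at 0.361 ± 0.055 and BIRC3 at 0.357 ± 0.013 CPM per kb, and the latter pair had nearly the same level. TNFRSF9 was the lowest at 0.0538 ± 0.0303 CPM per kb, or 0.341 CPM, and is called hardly measured in DMSO, being under 1 CPM.

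**Figure D1:**
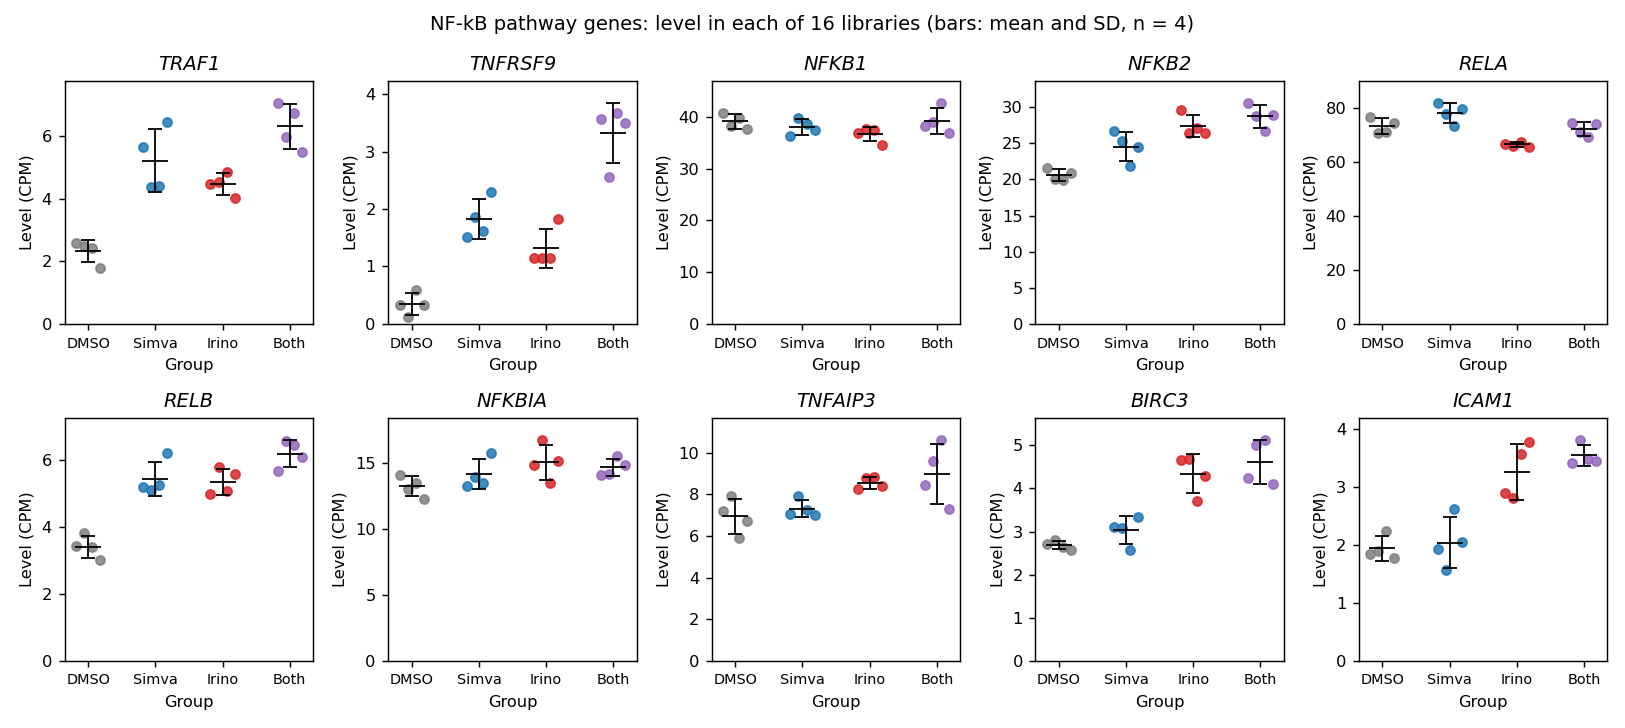
Level in CPM (vertical axes, each from 0) of the 10 genes in the 16 libraries; points are libraries, bars the mean and SD of 4, and the groups are DMSO, simvastatin (Simva), irinotecan (Irino) and the combination (Both). TRAF1 and TNFRSF9 lie above DMSO in every drug-treated library, RELB and NFKB2 do so too, and NFKB1 stays between 34.6 and 42.6 CPM throughout. How many of all genes lie above DMSO in every treated library was not counted.

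TRAF1, an adaptor of TNF receptors that is itself a known NF-kB target (ENSG00000056558, chromosome 9, 120902393 to 120929173), was higher with each drug and highest with both. In replicates 1 to 4 its level was 2.59, 2.48, 2.45 and 1.81 CPM with DMSO. It was 5.67, 4.37, 4.4 and 6.45 CPM with simvastatin. With irinotecan the values were 4.48, 4.53, 4.86 and 4.02 CPM, and with the combination 7.06, 5.98, 6.74 and 5.49 CPM. All 12 drug-treated libraries lay above all DMSO libraries, a split whose share over all genes was not counted. The irinotecan and simvastatin libraries overlapped each other, and the combination overlapped simvastatin but not irinotecan. Against DMSO, simvastatin gave a log2 fold change of 1.17 ± 0.14 (standard error), irinotecan 0.95 ± 0.15, and the combination 1.45 ± 0.14, a fold of 2.73. The combination lay 0.50 ± 0.13 above irinotecan and 0.28 ± 0.13 above simvastatin on the log2 scale.

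TNFRSF9 encodes 4-1BB (CD137), a costimulatory receptor of the TNF family best known on activated T cells, which signals through TRAF proteins to NF-kB (ENSG00000049249, chromosome 1, 7915894 to 7943165). Its level in replicates 1 to 4 was 0.324, 0.124, 0.592 and 0.322 CPM with DMSO, from 3 to 15 counts per library. With simvastatin it was 1.51, 1.85, 1.62 and 2.30 CPM, from 40 to 57 counts. The values with irinotecan were 1.16, 1.15, 1.14 and 1.83 CPM, and with the combination 3.57, 2.56, 3.67 and 3.50 CPM, the latter from 65 to 102 counts. The DMSO libraries were the lowest and those of the combination the highest, with no overlap of either with another group. Simvastatin and irinotecan overlapped, and the share of all genes with such a split was not counted. Set against DMSO, the simvastatin log2 fold change was 2.39 ± 0.28, that of irinotecan 1.92 ± 0.30 and that of the combination 3.27 ± 0.26 (fitted folds of 5.25, 3.79 and 9.63). The few counts in DMSO limit these folds, and with 1 library left out the last log2 value ran from 3.02 to 3.63. The combination was higher than irinotecan by 1.35 ± 0.21 and than simvastatin by 0.88 ± 0.20 on the log2 scale. The T cell markers CD3E and CD2 had no counts, and the pan-leukocyte marker PTPRC was at most 0.139 CPM in any library. The gene for the ligand of 4-1BB, TNFSF9, had a mean of 0.0194 CPM and is called hardly measured.

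On the log2 scale, the change with both drugs minus the added changes of each drug alone was -0.67 ± 0.19 for TRAF1 and -1.05 ± 0.37 for TNFRSF9. A value below 0 means less than the added changes on this scale. The sign can differ where changes are added in CPM, which was not tested. The value of TNFRSF9 is also limited by its 3 to 15 counts per DMSO library. In the 12 numbered libraries the TRAF1 value was smaller in size, -0.43 both without and with a replicate block, and its simvastatin log2 fold change was 0.94.

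The genes whose profile over the 16 libraries was nearest to that of TRAF1 were ADM2, KCNG1 and GPRC5A, out of 11979 compared. Likeness was the root mean square difference of log2 CPM after each gene was centred on its own mean, which was 0.16 for ADM2, 0.20 for KCNG1 and 0.21 for GPRC5A, against a spread (SD) of TRAF1 itself of 0.58 log2 units. ADM2, a peptide hormone of the calcitonin family, had 3.01 CPM with DMSO, and simvastatin, irinotecan and the combination brought 6.18, 5.41 and 7.32 CPM. The nearest to TNFRSF9 were the potassium channel gene KCNK6, GDF15 and INHBE, at larger differences of 0.60, 0.62 and 0.63 log2 units against an SD of TNFRSF9 of 1.25. KCNK6 had 1.1 CPM with DMSO and 2.79, 2.68 and 4.62 CPM with simvastatin, irinotecan and the combination.

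**Figure D2:**
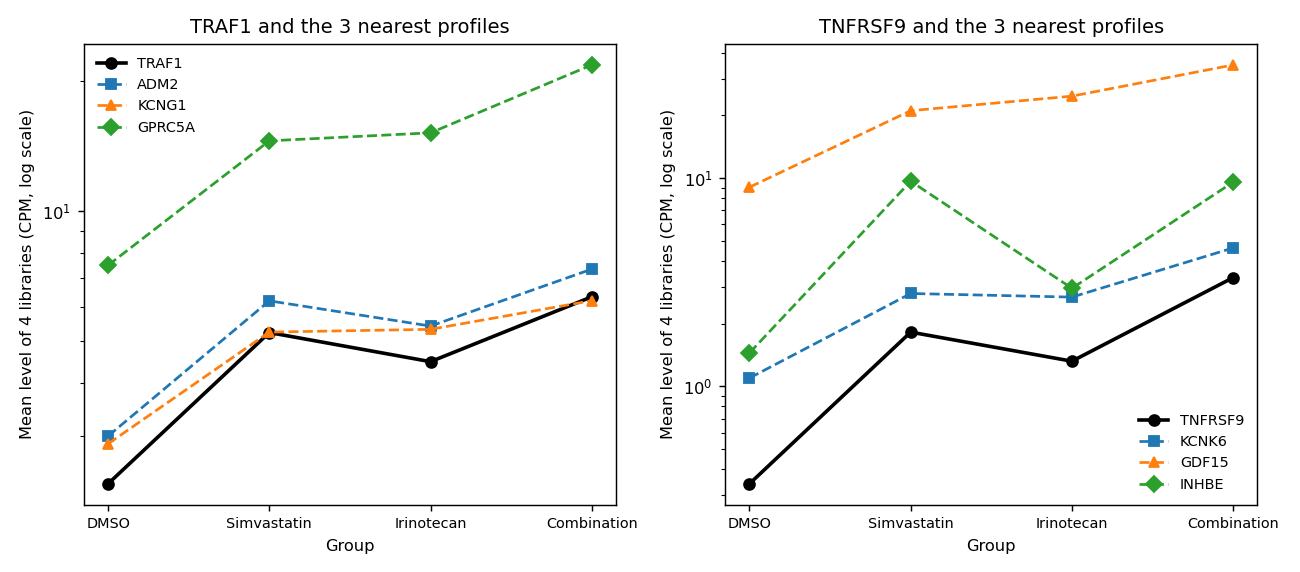
Mean level of 4 libraries per group (CPM, log axis) of TRAF1 (left) and TNFRSF9 (right), in black, with the 3 genes of nearest profile as dashed lines. ADM2 follows TRAF1 with its lowest mean in DMSO (3.01 CPM) and its highest in the combination (7.32 CPM). INHBE had 9.65 CPM with simvastatin and 2.96 CPM with irinotecan, a wider gap than that of TNFRSF9.

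Among the other 8 genes, simvastatin raised RELB and NFKB2, irinotecan raised these and BIRC3, ICAM1 and TNFAIP3, and the combination raised the same 5 genes as irinotecan. NFKB1 and NFKBIA passed the test in none of the 6 comparisons, and RELA fell slightly with irinotecan. A gene is called where the edgeR quasi-likelihood p, adjusted by the Benjamini-Hochberg method across the 16647 genes tested, lies below 0.05. With simvastatin 2 of the 8 were called, both higher, beside 6.00% of all genes (3.89% higher, 2.11% lower). With irinotecan 5 rose and 1 fell, beside 24.1% of all genes (12.4% higher, 11.7% lower). With the combination 5 rose, beside 28.1% (15.1% higher, 13.0% lower). Groups that did not overlap, as given for single genes in this section, were also common among all genes: 9.99% with simvastatin (5.74% higher, 4.25% lower), 23.3% with irinotecan (12.3% higher, 11.1% lower) and 26.2% with the combination (14.7% higher, 11.5% lower), each against DMSO. Between the combination and irinotecan the share was 13.0% (8.02% higher, 5.03% lower), and between the combination and simvastatin 25.8% (13.8% higher, 12.1% lower). These shares are for pairs of groups. Splits that take in more than 2 groups, such as all treated libraries above DMSO, were not counted over all genes. The median log2 fold change of the 8 was 0.09, 0.36 and 0.43 in these comparisons, and that of all genes -0.01, 0.00 and 0.00. The 3 comparisons share their DMSO libraries.

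Transcripts of the subunits of the non-canonical dimer rose with either drug. RELB, which pairs with p52 (ENSG00000104856, chromosome 19, 45001430 to 45038198), had 3.42, 3.81, 3.39 and 3.00 CPM in DMSO replicates 1 to 4. With simvastatin it had 5.18, 5.11, 5.26 and 6.20 CPM, with irinotecan 4.99, 5.79, 5.06 and 5.57 CPM, and with the combination 5.66, 6.57, 6.45 and 6.10 CPM. Every treated library was above every DMSO library, a split not counted over all genes, and the 3 treated groups overlapped one another. Simvastatin raised RELB by 0.68 ± 0.11 on the log2 scale (edgeR adjusted p = 9.95e-05), irinotecan by 0.66 ± 0.11 (adjusted p = 3.11e-05) and the combination by 0.87 ± 0.11 (adjusted p = 3.18e-07). The combination differed from irinotecan by 0.21 (95% interval -0.00 to 0.42) and from simvastatin by 0.19 (-0.02 to 0.40), and neither difference was called.

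NFKB2, the gene for p100 and p52 (ENSG00000077150, chromosome 10, 102394110 to 102402529), had 21.6, 20.1, 19.9 and 20.8 CPM with DMSO in replicates 1 to 4. It had 26.7, 25.3, 21.8 and 24.5 CPM with simvastatin, 29.6, 26.5, 27.1 and 26.5 CPM with irinotecan, and 30.6, 28.7, 26.7 and 29 CPM with the combination. All drug-treated libraries were above DMSO, simvastatin replicate 3 by little, and this split too was not counted over all genes. On the log2 scale NFKB2 rose by 0.25 ± 0.06 in the simvastatin group (edgeR adjusted p = 0.0122), by 0.41 ± 0.06 in the irinotecan group (adjusted p = 7.23e-06) and by 0.48 ± 0.06 in the combination (adjusted p = 5.82e-07). The combination was higher than simvastatin alone by 0.23 ± 0.06 (adjusted p = 0.00637). The simvastatin call was lost without simvastatin replicate 1 (adjusted p = 0.0812) and in the 12 numbered libraries without a replicate block (adjusted p = 0.0799), but not with it (adjusted p = 0.00586). The transcript of MAP3K14, the gene for NIK, did not rise. It had 28.4 CPM with DMSO and fell to 22.4 CPM with the combination (log2 fold change -0.34 ± 0.07, edgeR adjusted p = 0.000264). Single-drug changes of -0.18 and -0.04 were not called. NIK protein and the processing of p100 were not measured.

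RELA had the highest level per kilobase of the 10 genes in every group. RELA, the transactivating subunit p65 (ENSG00000173039, chromosome 11, 65653596 to 65663094), had 76.7, 70.7, 71.2 and 74.6 CPM with DMSO and 66.9, 66.1, 67.5 and 65.6 CPM with irinotecan, without overlap. With simvastatin it had 81.8, 77.6, 73.2 and 79.7 CPM, and with the combination 74.5, 71.2, 69.2 and 74.1 CPM, and both groups overlapped DMSO. With irinotecan it fell by 0.14 ± 0.04 on the log2 scale (edgeR adjusted p = 0.0138), a call lost with library sizes alone as the scaling (-0.07, adjusted p = 0.261), with no filter (adjusted p = 0.0563), in the 12 numbered libraries with no block (adjusted p = 0.0953, and 0.0265 with the block) and without DMSO replicate 1 (adjusted p = 0.0578). NFKB1, the gene for p105 and p50 (ENSG00000109320, chromosome 4, 102501329 to 102617302), had group means of 39.1 ± 1.4, 38.0 ± 1.5, 36.7 ± 1.4 and 39.2 ± 2.5 CPM with DMSO, simvastatin, irinotecan and the combination (SD, n = 4), and all groups overlapped. The 95% intervals of its log2 fold change against DMSO were -0.14 to 0.06, -0.19 to 0.01 and -0.10 to 0.11 for the 3 treatments in that order.

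Of the feedback inhibitors, TNFAIP3 rose with irinotecan and with the combination, and NFKBIA was not called. NFKBIA encodes IkBα, which recaptures nuclear RELA (ENSG00000100906, chromosome 14, 35401511 to 35404749). Its level was 14.1, 13.0, 13.4 and 12.3 CPM with DMSO, 13.2, 13.9, 13.5 and 15.8 CPM with simvastatin, 14.8, 16.7, 13.4 and 15.1 CPM with irinotecan, and 14.1, 14.1, 15.5 and 14.8 CPM with the combination. The combination libraries lay above DMSO by less than the rounding shows, and the other groups overlapped it. The log2 fold changes were 0.09, 0.19 and 0.15, with 95% intervals of -0.06 to 0.25, 0.03 to 0.34 and -0.01 to 0.31, and edgeR called none (adjusted p = 0.599, 0.068 and 0.147). With library sizes alone it was called with irinotecan (0.26, adjusted p = 0.00776) and with the combination (0.21, adjusted p = 0.0356), and without irinotecan replicate 3 it was called with irinotecan (adjusted p = 0.0307).

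TNFAIP3 encodes A20, a ubiquitin-editing enzyme that shuts off signalling to IKK (ENSG00000118503, chromosome 6, 137867188 to 137883312). Its level was 7.20, 7.90, 5.92 and 6.74 CPM with DMSO, 7.07, 7.91, 7.26 and 7.01 CPM with simvastatin, 8.24, 8.78, 8.84 and 8.40 CPM with irinotecan, and 8.43, 9.60, 10.6 and 7.28 CPM with the combination. Irinotecan lay above DMSO without overlap, and the combination overlapped it through replicate 4. TNFAIP3 rose by 0.31 ± 0.10 on the log2 scale with irinotecan (edgeR adjusted p = 0.0275) and by 0.38 ± 0.10 with the combination (adjusted p = 0.00592). Its simvastatin value of 0.08 ± 0.11 was not called. The irinotecan call was lost without DMSO replicate 3 (adjusted p = 0.106), DMSO replicate 4 (0.0685), irinotecan replicate 2 (0.0661) or irinotecan replicate 3 (0.0724), and in the 12 numbered libraries with no block (0.0701, and 0.0372 with the block), all adjusted p-values of the same test.

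BIRC3 and ICAM1 rose with irinotecan and with the combination, and no change was called with simvastatin. BIRC3 encodes cIAP2, a ubiquitin ligase that works with TRAF2 at TNF receptors (ENSG00000023445, chromosome 11, 102317450 to 102339403). It had 2.7, 2.81, 2.64 and 2.58 CPM with DMSO, 3.10, 3.09, 2.58 and 3.34 CPM with simvastatin, 4.66, 4.68, 3.71 and 4.30 CPM with irinotecan, and 4.25, 5.00, 5.11 and 4.11 CPM with the combination. The 8 libraries with irinotecan lay above the 8 without it, a split whose share over all genes was not counted. The log2 fold change was 0.70 ± 0.13 with irinotecan (edgeR adjusted p = 9.64e-05) and 0.79 ± 0.13 with the combination (adjusted p = 1.75e-05). With simvastatin it was 0.17, with a 95% interval of -0.10 to 0.45.

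ICAM1, a ligand of leukocyte integrins and a classical NF-kB target (ENSG00000090339, chromosome 19, 10270835 to 10286615), showed the same order. It had 1.84, 1.90, 2.25 and 1.77 CPM with DMSO, 1.93, 1.57, 2.61 and 2.05 CPM with simvastatin, 2.89, 2.81, 3.57 and 3.78 CPM with irinotecan, and 3.42, 3.82, 3.49 and 3.46 CPM with the combination. Here too the 8 libraries with irinotecan lay above the others, and the share of all genes with this split was not counted. The log2 fold change was 0.75 ± 0.15 with irinotecan (edgeR adjusted p = 0.00046) and 0.87 ± 0.15 with the combination (adjusted p = 5.92e-05), and 0.09 with simvastatin (95% interval -0.25 to 0.43). ICAM1 is also made by endothelium: of 7 endothelial markers 5 were under 1 CPM in mean, PECAM1 was at most 0.122 CPM, and the summed level per library ran from 5.80 to 7.03 CPM in DMSO, from 5.85 to 7.34 in simvastatin, from 7.37 to 8.91 in irinotecan and from 7.95 to 8.85 in the combination. The markers did not move together. With the combination against DMSO, KDR and VWF were called higher and CLDN5 lower, and ESAM was not called. Of all genes, 28.1% were called in that comparison. Over all libraries VWF and CLDN5 had means of 0.773 and 0.279 CPM, and VWF had 1.24 CPM with the combination. The part of these markers in the result was not tested. ICAM1 and TNFAIP3 overlap antisense genes and TNFRSF9 overlaps a pseudogene, whose counts summed to at most 8 per gene over all libraries. RELA overlaps AP001362.2, a long noncoding RNA gene on the other strand. No counts under that name were found, so its share in the RELA level was not checked.

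**Figure D3:**
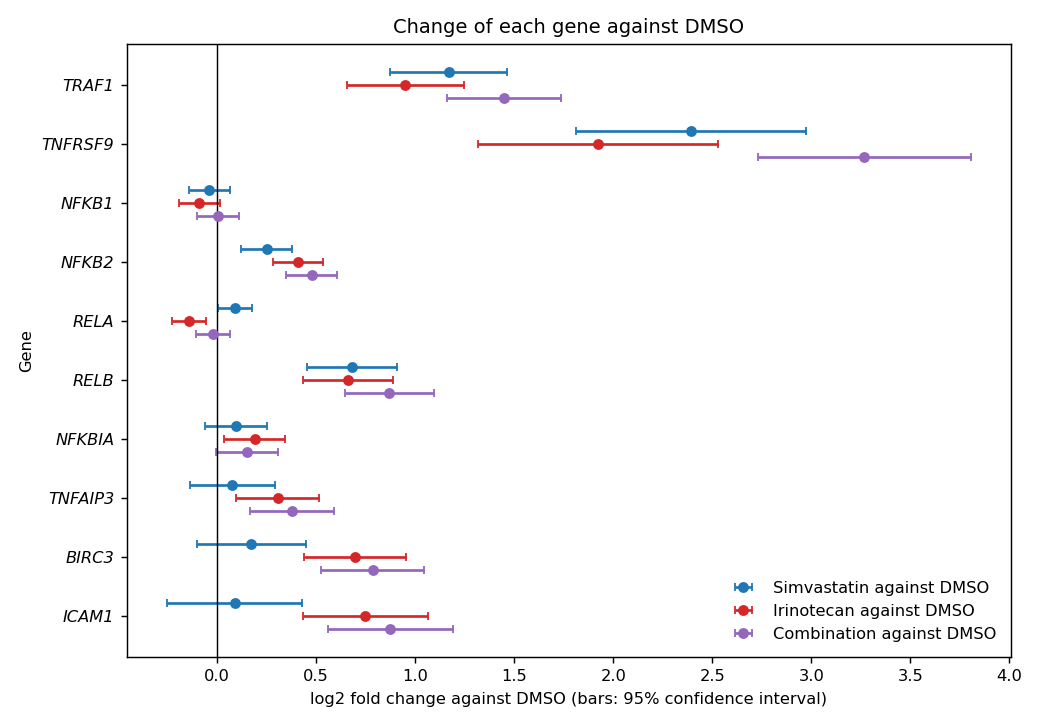
Log2 fold change against DMSO (horizontal axis) of each gene with simvastatin (blue), irinotecan (red) and the combination (purple); points are edgeR estimates from 4 libraries a group and bars their 95% intervals. BIRC3 and ICAM1 have intervals that include 0 with simvastatin and lie above 0 with irinotecan. RELB and NFKB2 lie above 0 in all 3, and the intervals of NFKB1 include 0 in all 3. The intervals of TRAF1 and TNFRSF9 are a description and not a test, because these genes count as chosen by their measured differences.

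The combination was also compared with each drug alone. In the combination against irinotecan edgeR called 0 of the 8, beside 5.94% of all genes (4.45% higher). That count is near the share of all genes and is not a result about these 8. RELA alone had an unadjusted p under 0.05 (log2 fold change 0.12, adjusted p = 0.0995), and DESeq2 also called 0. In the combination against simvastatin 4 rose and 1 fell, beside 25.6% of all genes (13.9% higher, 11.7% lower). BIRC3 by 0.61 ± 0.13, ICAM1 by 0.79 ± 0.15, TNFAIP3 by 0.30 ± 0.10 and NFKB2 were higher and RELA was lower (-0.11 ± 0.04, edgeR adjusted p = 0.0493). The RELA call was lost in 15 of 24 alternatives, with adjusted p-values from 0.0134 to 0.309 over all of them. That of TNFAIP3 (adjusted p = 0.0293) was lost without simvastatin replicate 1 (0.0746) or 4 (0.0701) and without combination replicate 2 (0.0884) or 3 (0.171).

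For the interaction, the difference between the change with both drugs and the added single-drug changes, edgeR called 0 of the 8 and 0.0120% of all genes, and DESeq2 called 0 of the 8. At an unadjusted p under 0.05 there were 2, RELB at -0.47 ± 0.15 (adjusted p = 0.744) and NFKB2 at -0.18 ± 0.09 (adjusted p = 0.828). The values of BIRC3 and ICAM1 were -0.08 ± 0.18 and 0.04 ± 0.22.

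The wider pathway was read from 5 lists of 110 genes, of which 80 passed the filter on low counts. With simvastatin 7 of the 80 rose and 1 fell (10.0%, beside 6.00% of all genes). With irinotecan 24 rose and 8 fell (40.0%, beside 24.1%), and with the combination 27 rose and 10 fell (46.2%, beside 28.1%). Scaling by library sizes alone moved the higher share of all genes called with irinotecan from 51.4% to 77.8% and with the combination from 53.8% to 73.4%. The same scaling moved it from 74.8% to 62.9% in the combination against irinotecan and from 54.1% to 73.4% in the combination against simvastatin.

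Most ligands of the TNF family were hardly measured. Of 18 ligand genes 5 passed the filter, and TNF itself had a mean of 0.0904 CPM, LTA 0.122 CPM and LTB 0.0307 CPM. TNFSF10, the gene for the death ligand TRAIL, rose from 6.12 to 9.06 CPM with irinotecan (log2 fold change 0.56 ± 0.10, edgeR adjusted p = 5.24e-05) and to 8.33 CPM with the combination. TNFSF4, the gene for OX40 ligand, rose from 14.5 to 18.6 CPM with simvastatin (0.35 ± 0.07, adjusted p = 0.000933) and to 17.9 CPM with the combination, and had 13.6 CPM with irinotecan. CD70, another ligand of the family, rose from 78.1 to 88.0 CPM with irinotecan and 89.2 CPM with the combination.

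Of 22 receptor genes of the family 15 passed the filter, of which 1 was called with simvastatin, 9 with irinotecan (6 higher, 3 lower) and 10 with the combination (7 higher, 3 lower), or 6.67%, 60% and 66.7% beside 6.00%, 24.1% and 28.1% of all genes. TNFRSF10B, a death receptor for TRAIL, had 99.5 CPM with DMSO and rose to 118, 116 and 131 CPM in the simvastatin, irinotecan and combination groups (log2 fold changes 0.25, 0.22 and 0.40, all called). Its reads may be split with close paralogs, which the counting could not be checked for. NGFR, the neurotrophin receptor p75, rose from 5.89 to 14.8 CPM with irinotecan (1.33 ± 0.08, edgeR adjusted p = 7.84e-14) and 13.3 CPM with the combination. TNFRSF11B, the gene for the decoy receptor osteoprotegerin, fell from 32.5 to 21.8 CPM with irinotecan and 22.4 CPM with the combination, and TNFRSF19 fell from 118 to 88.9 CPM with irinotecan. The genes for TNF receptors 1 and 2, named here after their values were seen, went opposite ways. TNFRSF1A, for receptor 1, fell from 111 to 98.0 CPM with irinotecan (-0.18 ± 0.04, edgeR adjusted p = 0.000601) and to 98.1 CPM with the combination. TNFRSF1B, for receptor 2, went from 0.614 to 1.79 CPM with irinotecan (1.55 ± 0.24, edgeR adjusted p = 9.97e-06), near the limit of what was measured.

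Between the receptors and IKK, all 28 genes listed passed the filter, with 1 called with simvastatin, 6 with irinotecan (5 higher, 1 lower) and 7 with the combination (5 higher, 2 lower). These are 3.57%, 21.4% and 25% of the list, beside 6.00%, 24.1% and 28.1% of all genes called. The counts do not set this list apart. TNIP1, a partner of A20, fell from 138 to 112 CPM with irinotecan (log2 fold change -0.30 ± 0.04, edgeR adjusted p = 2.33e-06). With simvastatin it had 152 CPM (0.15 ± 0.04, adjusted p = 0.0296), a call lost without DMSO replicate 2 (0.137) or 4 (0.0694), simvastatin replicate 2 (0.0617) or 4 (0.0899), and in the 12 numbered libraries with no block (0.17, and 0.0126 with the block). CYLD, a deubiquitinase that restrains NF-kB, rose from 33.6 to 43.1 CPM with the combination (0.36 ± 0.06, adjusted p = 2.41e-05). The adaptor gene MYD88 rose from 44.4 to 51.1 CPM with irinotecan (0.20 ± 0.05), and IKBKE, an IKK-related kinase gene, from 3.63 to 5.20 CPM (0.52 ± 0.12).

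Among 10 genes of IkB proteins, IKK kinases and REL, 1 was called with irinotecan (higher) and 3 with the combination (1 higher, 2 lower), or 10% and 30% beside 24.1% and 28.1% of all genes, so the counts do not set this list apart. With simvastatin edgeR called 0 of them, with 1 at an unadjusted p under 0.05, and DESeq2 called 8 over all 5 lists, as edgeR did. NFKBIE, the gene for IkBε, rose from 6.43 to 8.03 CPM with irinotecan (log2 fold change 0.32 ± 0.09, edgeR adjusted p = 0.0112). IKBKB, the gene for the kinase IKKβ, fell from 49.8 to 41.0 CPM with the combination (-0.28 ± 0.05, adjusted p = 0.000122), beside the fall of MAP3K14 given above.

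Of 32 further NF-kB target genes 22 passed the filter, with 4 higher and 1 lower with simvastatin, 10 higher and 4 lower with irinotecan, and 11 higher and 3 lower with the combination, or 22.7%, 63.6% and 63.6% beside the same shares of all genes. CXCL8, the gene for interleukin-8, had 1.05 CPM in DMSO, 34.2 CPM in simvastatin, 4.46 CPM in irinotecan and 26.0 CPM in the combination, so the highest mean was that of simvastatin alone. IER3, an early response gene, rose from 35.3 to 44.5 CPM with simvastatin (log2 fold change 0.33 ± 0.06, edgeR adjusted p = 0.00031). IRF1, an interferon regulatory factor gene, rose from 10.7 to 15.0 CPM with irinotecan (0.48 ± 0.08, adjusted p = 2.03e-05). Some targets went the other way: with irinotecan the urokinase gene PLAU fell from 246 to 180 CPM (-0.46 ± 0.04, adjusted p = 6.83e-10) and the chemokine gene CCL2 from 448 to 378 CPM (-0.25 ± 0.04, adjusted p = 1.33e-05). TNFAIP2 fell from 453 CPM in DMSO to 392 CPM under simvastatin and 370 CPM under both drugs. Named after their values were seen, the cytokine gene IL6 (1.77, 1.88, 1.48 and 1.57 CPM in the order of the groups) and SOD2, a mitochondrial superoxide dismutase gene (95.9, 93.4, 92.2 and 91.9 CPM) were not called in any comparison with DMSO.

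**Figure D4:**
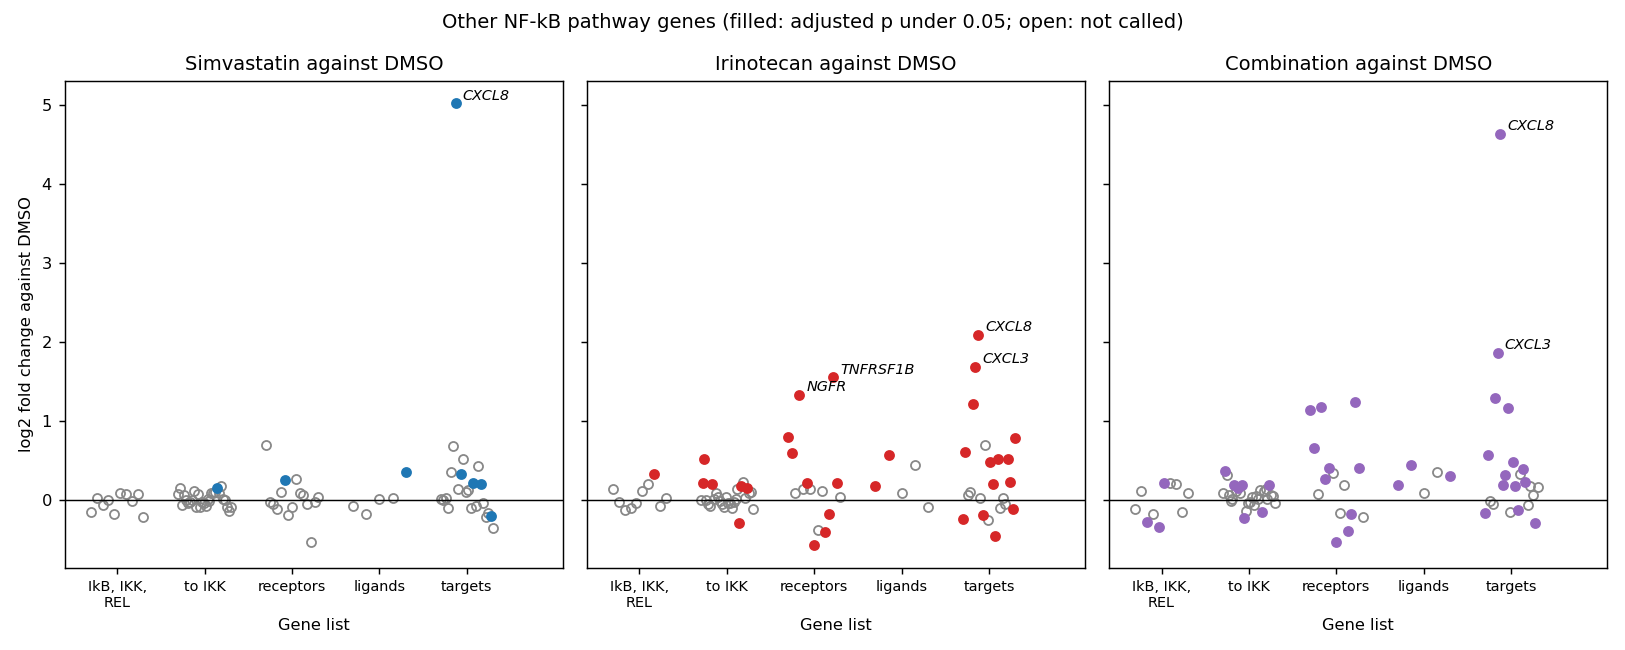
Log2 fold change against DMSO (vertical axis) of the 80 tested genes of the 5 pathway lists (horizontal axis), 1 panel per treatment; each point is a gene, filled where edgeR called it. Called genes lie on both sides of 0 in the target list in all 3 panels, with CXCL8 farthest above 0 in each.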

How the data were processed

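Gene counts of 16 poly(A) RNA libraries of U-251 MG cells were used as deposited: whole numbers for 58243 Ensembl genes that the authors had not normalised. Per the submitters' processing notes, FastQC, STAR 2.7.1, DESeq2 and the build GRCh38 were used. Which annotation, counter and strand setting were used is not given in the sources used here. Groups came from the sample titles. The genes, lists and tests were chosen with earlier results of these data known.

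The analysis ran edgeR 4.0.16 (limma 3.58.1, R 4.3.3) on the counts: filterByExpr (minimum count 10, minimum total 15), which left 16647 genes, TMM factors, and robust quasi-likelihood models of all 16 libraries with 1 term per group, tested by two-sided F tests and adjusted by Benjamini-Hochberg over all genes. Standard errors come from the log2 fold change and its F statistic. Per-gene depth is limited by library totals of 24159673 to 32318888 counts. Pairs of libraries in a group had a chi-squared per degree of freedom of 2.59 to 15.4, and none was a duplicate. The tests were tried on simulated data. All 10 genes were named, with up to 3 called genes per list and comparison (smallest p, mean of at least 1 CPM) and the 3 profiles nearest to TRAF1 and TNFRSF9 (mean log2 CPM of at least 1). Not every gene that this rule takes is given values. Promoter sequences are RefSeq's on GRCh38.p14, and gene positions are from GENCODE 29, which held 57980 of the gene IDs. Alternatives were DESeq2 1.42.0, other scaling, no filter, a threshold of 0.01, fewer groups or libraries, a replicate block, and leaving out each library. Figures used Python 3.11.15 and matplotlib 3.10.9.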

Additional observations from a re-analysis of the deposited data

Results flagged for a closer look

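TNFRSF9 with irinotecan had 1 library far from the rest: replicate 4 had 1.83 CPM and the nearest of the others 1.16 CPM. Without it the log2 fold change against DMSO was 1.73. In the combination, TNFRSF9 in replicate 2 was 2.56 CPM, below the nearest value of 3.50 CPM, and without it the log2 fold change against DMSO was 3.37. RELB in simvastatin replicate 4 was 6.20 CPM, above the nearest value of 5.26 CPM. Without that library RELB had a log2 fold change of 0.61 with simvastatin (edgeR adjusted p = 0.00121). In all, 3 of 40 sets of 4 libraries had such a gap, and chance gives about 1 in 20.

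CXCL8 was the gene of these lists whose response to simvastatin differed with and without irinotecan by the test of the interaction itself, at -2.48 ± 0.33 on the log2 scale (edgeR adjusted p = 0.037). That call was lost at a threshold of 0.01 and in 11 of the 16 fits that left out 1 library.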

How the results depend on the processing

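Of the 8 tested genes, simvastatin against DMSO called 1 at an adjusted p under 0.01 and 1 in the 12 numbered libraries without a block, and 1 to 2 with each library left out in turn. The combination against simvastatin called 3 at an adjusted p under 0.01 and 3 to 5 with a library left out. Irinotecan against DMSO called 5 to 6 with a library left out, and the combination against DMSO 5 in all 16 such fits. At an adjusted p under 0.01, irinotecan against DMSO lost the calls of TNFAIP3 (edgeR adjusted p = 0.0275) and RELA (0.0138). The interaction of the pathway lists had 0 calls at an adjusted p under 0.01 and 0 to 1 with a library left out. Except for the 12 numbered libraries, treated below, the calls over all genes in these fits are not given. These counts are therefore not a result about the listed genes.

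Log2 fold changes that changed sign had all missed the threshold. NFKB1 in the combination against DMSO was -0.0018 with DESeq2, -0.0021 with median-ratio factors, -0.0023 with no filter, -0.0083 with the compared groups only, and -0.0407 to 0.0311 with a library left out. RELA in the same comparison was 0.0355 with library sizes alone. With a library left out, ICAM1 with simvastatin ran from -0.0619 to 0.191, TNFAIP3 and NFKBIA in the combination against irinotecan from -0.0189 to 0.159 and from -0.0870 to 0.0214, and NFKB1 in the combination against simvastatin from -0.00046 to 0.0713. The interaction ran from -0.0950 to 0.0830 for TNFAIP3, -0.0012 to 0.0518 for RELA and -0.0647 to 0.188 for ICAM1. In the 12 numbered libraries without and with the block it was 0.0362 and 0.0416 for BIRC3 and 0.0674 and 0.0706 for TNFAIP3. The cause was not tested.

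The labels do not say that a replicate number marks a shared culture or day, and not every same-numbered pair correlated (18 pairs, -0.0646 to 0.2), so the libraries were not treated as paired. That 9 of 12 correlated best with their own number, with a median of 0.0563 beside -0.0316 for other pairs, is a hint of pairing from the data. In the 12 numbered libraries without the replicate block, 1, 4, 5, 0, 4 and 0 of the 8 genes were called in the 6 comparisons. The calls over all genes in these fits were 513, 2997, 3638, 707, 3398 and 1. With the block, 2, 6, 5, 0, 5 and 0 were called, beside 1141, 4257, 4936, 2016, 4839 and 190 of all genes. Over all genes the block raised the calls of the combination against irinotecan from 707 to 2016 and of the interaction from 1 to 190, and over the pathway lists the former from 11 to 18. The TRAF1 interaction and simvastatin values also moved in these libraries, as given above. The fit of the compared groups only cannot be made for the interaction. Few counts, 3 to 15 per DMSO library, limit TNFRSF9.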
